A study of Rattus norvegicus with 6 samples.

Results

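The contractile apparatus of vascular smooth muscle was followed through 33 genes in the thoracic aorta. They encode the actin and myosin filaments, the enzymes that switch myosin on and off, the scaffolds that anchor the filaments, and the 2 transcription factors that drive the programme. The list was given by gene symbol, and a gene was taken as measured where the platform annotation names it alone for a probe set, the group of short array probes that reports a transcript. By that rule 30 of the 33 genes were measured, each by a single probe set, out of 28879 probe sets on the array. The smooth muscle actin gene Acta2 and the calponin gene Cnn1 had no probe set of their own. The light chain gene Myl6 shared its probe set with 3 other genes or loci and was set aside.

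The tissue came from untreated 24-week-old rats of 2 inbred strains, 3 arrays each. SHR, the spontaneously hypertensive rat, develops high blood pressure, and WKY, the Wistar-Kyoto rat, is the related strain with normal pressure that commonly serves as its control. Vessels had been cleaned of adhering fat and connective tissue, and nothing in the labels ties each array to its own animal, so the p-values speak of the spread between these arrays, which may be technical. In bulk tissue, fewer smooth muscle cells and less RNA per cell cannot be told apart. Levels are log2 values from RMA, a method that corrects background and normalizes arrays to each other. Levels of single genes are compared between arrays and not with each other. Brightness was set against the array medians or the members' median level.

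Contraction of arterial smooth muscle starts when calcium and calmodulin activate the myosin light chain kinase, which phosphorylates the regulatory light chain so that smooth muscle myosin pulls on actin. Myosin phosphatase reverses the step, and inhibition of that phosphatase makes the muscle more sensitive to calcium. Filaments are fixed to dense bodies and to dense plaques at the membrane, where actinin, filamin, vinculin and LIM domain proteins link them to the matrix. Many genes of the programme are transcribed through serum response factor and its coactivator myocardin, and their mRNAs decline when the cell leaves the contractile state.

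No measured contractile gene passed the test between SHR and WKY aortae. In the limma fit, 0 of the 30 genes passed at an adjusted p under 0.05, where 0.0693% of all 21659 tested probe sets passed, 0.06% as higher and 0.00923% as lower in SHR. At an unadjusted p under 0.05 there was 1 gene, Pdlim5, which was higher in SHR; the background share in either direction was 5.55%. The largest difference in size was that of Ppp1r14a, at -0.48 on the log2 scale (SHR minus WKY), which is a ratio of 0.717, so no gene differed by as much as 1.5-fold. The 95% interval of the fitted difference lay within 1 log2 unit of 0, a 2-fold change, for 28 of the 30 genes, and the exceptions were Ppp1r14a and Ppp1cb. These intervals are not adjusted for the number of genes, and they do not show that the strains are alike.

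The median difference of the 30 genes was -0.06, beside -0.01 over all tested probe sets. The difference lay above 0 for 11 genes and below 0 for 19, where 48.0% of all tested probe sets lay above 0 and 52.0% below. These counts rested on single arrays. Without SHR replicate 1, the median was 0.04 with 20 genes above 0; without SHR replicate 3 it was -0.13 with 6 above 0, and without WKY replicate 1 it was -0.08 with 7 above 0. After cyclic loess normalization, which removes shifts between arrays that depend on brightness, the median was -0.13 and 25 genes lay below 0. The 3 SHR arrays lay outside the range of the 3 WKY arrays for 3 genes, beside 12.1% of all tested probe sets. All 3 genes, Tpm4, Pgm5 and Pdlim5, lay higher in SHR, a direction in which 6.48% of all tested probe sets were separated, and 0 lay lower, where that share was 5.61%.

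**Figure D1:**
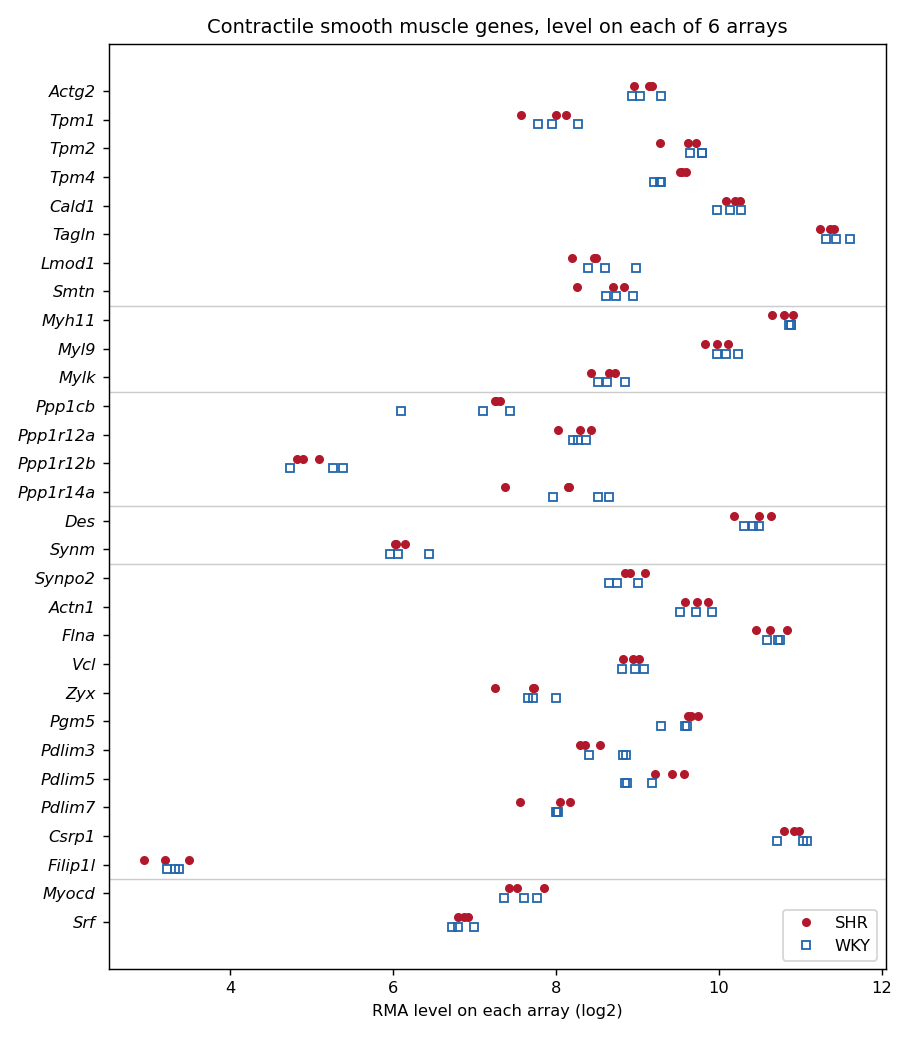
Level of each of the 30 measured contractile genes (rows, grouped by role with grey lines between groups) on a log2 axis, with a red circle for each SHR array and a blue open square for each WKY array. The symbols of the strains intermix for most genes and are separated for Tpm4, Pgm5 and Pdlim5, while WKY replicate 3 stands apart for Ppp1cb at 6.10.

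The 2 transcription factors of the programme had a median difference of 0.02, about as near to 0 as the -0.03 of the 2 intermediate filament genes. Srf, which encodes serum response factor, had log2 levels of 6.80, 6.87 and 6.92 on SHR replicates 1 to 3, against 6.72, 6.99 and 6.79 on WKY replicates 1 to 3. The SHR values fell inside the range of the WKY values, and the difference was 0.03 ± 0.14 (SE; limma adjusted p = 0.986), with a 95% interval from -0.31 to 0.36. Myocd, the gene of myocardin, had 7.43, 7.53 and 7.85 in SHR, against 7.76, 7.36 and 7.61 in WKY. Its strains overlapped as well, with a difference of 0.02 ± 0.18 (SE; limma adjusted p = 0.989) and an interval from -0.40 to 0.45.

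Serum response factor binds the CArG box, a stretch of 6 A or T bases between CC and GG. The stretches below come from RefSeq promoter windows of assembly GRCr8, each reaching from 250 bases before to 50 bases after a gene's start, and are shown because they hold the matches to this box that lay closest to the starts of listed genes. Of the 33 genes, 27 had such a window. Lmod1, Myh11, Myl9, Myocd, Pdlim3 and Tagln had none, so their promoters were not searched. Capitals mark each CArG box or each box with 1 C or G in its core, and all stretches end before the gene's start. The assembly is of another rat strain, so differences of SHR or WKY from it are not seen here. The Srf stretch is chr9:21923965-21924054 on the plus strand, that of Acta2 is chr1:241172548-241172667 on the minus strand, and that of Zyx is chr4:72204306-72204375 on the plus strand.
Srf: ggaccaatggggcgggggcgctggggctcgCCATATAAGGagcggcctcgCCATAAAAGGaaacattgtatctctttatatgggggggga
Acta2: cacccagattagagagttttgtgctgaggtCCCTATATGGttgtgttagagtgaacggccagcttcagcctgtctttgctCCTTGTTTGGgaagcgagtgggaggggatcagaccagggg
Zyx: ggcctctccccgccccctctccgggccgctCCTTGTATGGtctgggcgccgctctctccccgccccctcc

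Among the 29 windows of listed genes that could be searched, the Srf window alone held boxes of the exact consensus. It held 2, beginning 81 and 61 bases before the start. Among all 33469 windows, 1.64% held an exact box. With 1 C or G allowed in the core, boxes were found for 4 of the 27 genes (14.8%), against 9.42% of all windows. The first is a share of genes, some with more than 1 window, and the second a share of windows. The 4 were Srf, Acta2 with 2 boxes, Zyx with 1 box in each of 2 windows, and Filip1l. The other Zyx window held its box at 236 bases before its start, and that of Filip1l lay at 226. The motif CATTCC, bound by TEAD factors and searched on both strands, was found for 7 of the 27 genes (Acta2, Cald1, Flna, Mylk, Tpm1, Vcl and Zyx) and in 14.2% of all windows. TATAAA, also on both strands, was found for Cald1 and Srf, and likewise in 14.2% of all windows. A CArG core can itself hold TATAAA, so these searches can overlap. Neither marked Srf box holds TATAAA on either strand, and no CArG box was found for Cald1. The median GC content was 63.7% over the 29 windows of listed genes and 51.7% over all windows. These matches are letters in a window and not sites shown to be bound.

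Thin filament genes included the clearest separation of the strains. Tpm4, a tropomyosin gene that is also active in non-muscle cells, had 9.54, 9.60 and 9.53 on the SHR arrays, against 9.20, 9.28 and 9.29 on the WKY arrays. Every SHR value lay above every WKY value, and each strain's SD was at most 0.05. The difference was 0.30 ± 0.13 (SE; limma adjusted p = 0.913, unadjusted p = 0.0561) and stayed between 0.27 and 0.31 whichever array was left out. The other tropomyosins are the main isoforms of contractile smooth muscle. Tpm2 had 9.28, 9.63 and 9.72 in SHR, against 9.65, 9.80 and 9.80 in WKY, and differed by -0.21 ± 0.17. Tpm1 had 7.56, 8.01 and 8.12 in SHR, against 7.78, 7.95 and 8.27 in WKY, and differed by -0.11 ± 0.21 (SE; limma adjusted p of 0.923 and 0.958 for Tpm2 and Tpm1). For both genes SHR replicate 1 was the lowest of the 6 arrays and the strains overlapped. Without that array Tpm2 differed by -0.07 and Tpm1 by 0.06, and without WKY replicate 3 Tpm1 differed by 0.03.

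Actg2, the enteric smooth muscle actin that vascular muscle also expresses, averaged 9.09 ± 0.12 in SHR and 9.09 ± 0.19 in WKY (SD, n = 3 each). Tagln, the actin-binding protein transgelin and a common marker of the contractile state, had 11.24, 11.42 and 11.36 in SHR, against 11.31, 11.44 and 11.61 in WKY. The ranges overlapped, and its difference was -0.11 ± 0.15 (SE). Cald1, the gene of caldesmon, which restrains myosin on the thin filament, differed by 0.06 ± 0.15. Lmod1, a leiomodin that nucleates actin filaments, had 8.20, 8.47 and 8.49 in SHR, against 8.40, 8.60 and 8.99 in WKY, a difference of -0.27 ± 0.19 that was -0.11 without WKY replicate 3. Smtn, the actin-binding smoothelin of contractile cells, averaged 8.60 ± 0.30 in SHR and 8.76 ± 0.17 in WKY, and its difference of -0.17 was 0.00 without SHR replicate 1. The limma adjusted p of these 5 genes ran from 0.923 (Lmod1) to 0.999 (Actg2).

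The myosin motor and its kinase differed by at most 0.13 in size. Myh11, the smooth muscle myosin heavy chain, had 10.65, 10.80 and 10.90 on the SHR arrays and 10.89, 10.89 and 10.86 on the WKY arrays. SHR replicate 1 was the lowest array and SHR replicate 3 the highest, so that WKY lay within the SHR range; the difference was -0.09 ± 0.14 (SE; limma adjusted p = 0.946). Myl9, the regulatory light chain, had 9.98, 9.83 and 10.11 in SHR, against 10.09, 10.24 and 9.98 in WKY. Mylk, the kinase that phosphorylates that light chain, had 8.42, 8.66 and 8.72 in SHR, against 8.52, 8.63 and 8.85 in WKY. The strains overlapped for both, at differences of -0.13 ± 0.15 and -0.06 ± 0.16. Their 95% intervals ran from -0.48 to 0.23 for Myl9 and from -0.44 to 0.31 for Mylk.

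Myosin phosphatase genes held the 2 largest standard errors of the list. Ppp1r14a, the smooth muscle inhibitor of the phosphatase through which protein kinase C raises calcium sensitivity, had 7.38, 8.15 and 8.15 on SHR replicates 1 to 3, against 7.96, 8.51 and 8.65 on WKY replicates 1 to 3. SHR replicate 1 was the lowest array, and WKY replicate 1 lay below the other SHR arrays, so the strains overlapped. The difference was -0.48 ± 0.28 (SE; limma adjusted p = 0.923), with an interval from -1.13 to 0.17, and -0.22 without SHR replicate 1. Ppp1cb, the catalytic subunit, had 7.31, 7.25 and 7.27 in SHR, against 7.10, 7.44 and 6.10 in WKY. The other arrays lay between 7.10 and 7.44 and WKY replicate 3 far below them, so the difference of 0.40 ± 0.32 (limma adjusted p = 0.923) was 0.01 without that array. The subunits that target the phosphatase to myosin differed by -0.03 ± 0.16 (Ppp1r12a) and -0.18 ± 0.20 (Ppp1r12b), with overlapping strains.

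Intermediate filament genes did not separate the strains. Des, the gene of the muscle filament protein desmin, had 10.19, 10.49 and 10.64 in SHR, against 10.31, 10.49 and 10.41 in WKY, with a difference of 0.04 ± 0.17 (SE; limma adjusted p = 0.983). Synm, the gene of synemin, which joins desmin filaments to dense plaques, averaged 6.07 ± 0.06 in SHR and 6.15 ± 0.25 in WKY (SD, n = 3 each; limma adjusted p = 0.956).

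Among the scaffold genes, members of the PDZ and LIM domain family lay on different sides of 0. Pdlim5, whose protein binds actinin and protein kinase C, had 9.22, 9.42 and 9.57 on the SHR arrays, against 9.18, 8.87 and 8.84 on the WKY arrays. All SHR values lay above all WKY values, most narrowly between SHR replicate 1 and WKY replicate 1. The difference was 0.44 ± 0.17 (SE; unadjusted p = 0.0341, limma adjusted p = 0.876) and ran from 0.35 to 0.54 over the fits without 1 array. Pdlim3, an actinin-associated LIM protein, had 8.29, 8.54 and 8.36 in SHR, against 8.83, 8.86 and 8.40 in WKY. The lowest WKY value fell among the SHR values, and the difference was -0.30 ± 0.18 (limma adjusted p = 0.923), or -0.45 without WKY replicate 3. Pdlim7, which binds tropomyosin and kinases, averaged 7.92 ± 0.32 in SHR and 8.01 ± 0.01 in WKY, with SHR replicate 1 at 7.56 below the other arrays.

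Pgm5, a phosphoglucomutase relative that sits at muscle adhesion sites without known enzyme activity, had 9.62, 9.66 and 9.75 in SHR, against 9.61, 9.59 and 9.29 in WKY. The strains were separated, yet 2 of the WKY arrays lay within 0.1 of the SHR arrays, and the difference of 0.18 ± 0.15 (SE; limma adjusted p = 0.923) was 0.08 without WKY replicate 3. Zyx, the gene of zyxin, a LIM protein that gathers where actin filaments are under tension, had 7.25, 7.71 and 7.73 in SHR, against 7.65, 7.71 and 7.998 in WKY. Its strains overlapped, with a difference of -0.22 ± 0.19 that was -0.07 without SHR replicate 1 and -0.12 without WKY replicate 3. The remaining scaffold genes differed by between -0.10 and 0.15 and overlapped between strains: Synpo2, an actin-bundling protein, by 0.15, the crosslinker Actn1 by 0.01, Vcl, the gene of vinculin, by -0.03, Flna, the gene of filamin A, by -0.05, Csrp1, a partner of zyxin and actinin, by -0.05, and Filip1l, related to a filamin-binding protein, by -0.10. Filip1l was dim, at 2.94 to 3.49 over the 6 arrays, where the array medians were 2.29 to 2.52.

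**Figure D2:**
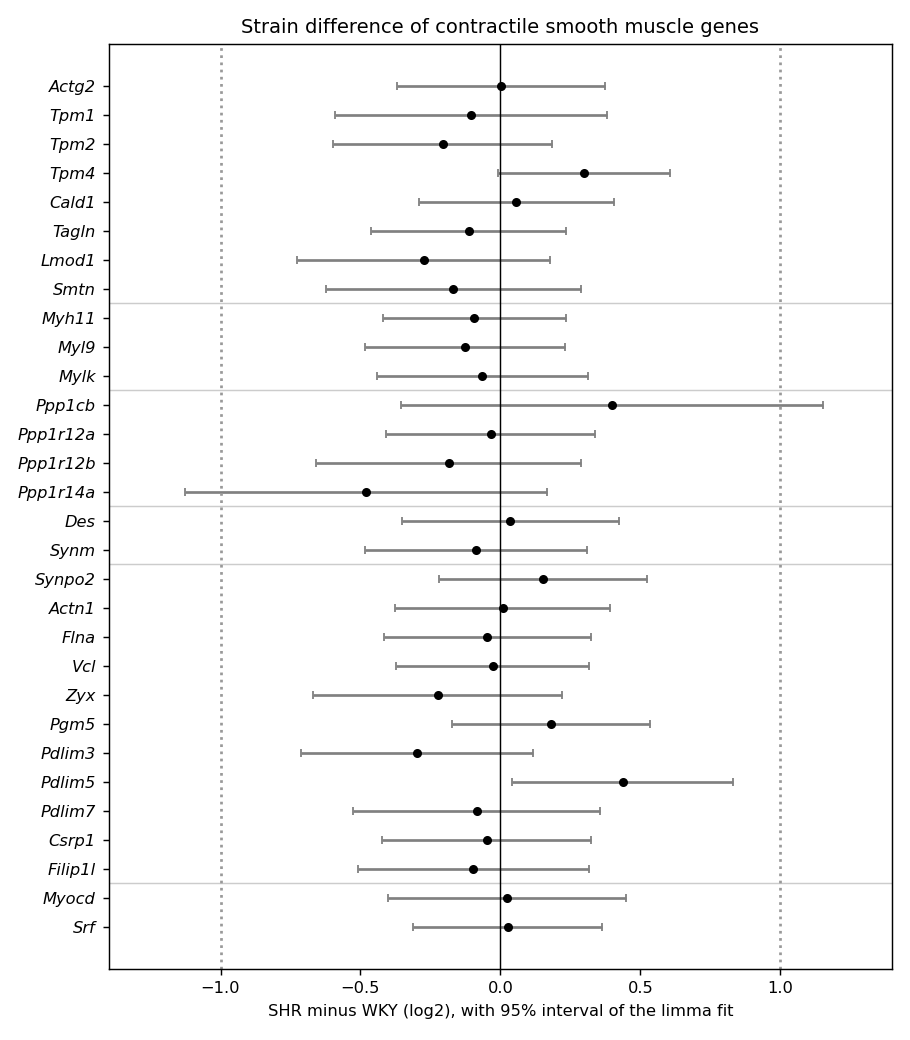
Fitted difference, SHR minus WKY on the log2 scale, for each measured contractile gene in the same order of roles, with its 95% interval as a bar. Dotted lines mark 1 log2 unit on either side of 0: the bars of Ppp1r14a (to -1.13) and Ppp1cb (to 1.15) cross them, and that of Pdlim5 alone leaves out 0 (0.04 to 0.83).

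Array to array, many of the genes shared their highs and lows. SHR replicate 1 was the lowest of the 6 arrays for 15 of the 30 genes and the highest for 0. WKY replicate 1 and WKY replicate 3 were the lowest for 6 genes each. The highest value fell on SHR replicate 3 for 10 genes, on WKY replicate 3 for 10 and on WKY replicate 2 for 9. On SHR replicate 3, 27 of the 30 genes lay above their own mean over the 6 arrays. The median deviation from that mean was 0.10 there, beside 0.00 over all tested probe sets. On SHR replicate 1 it was -0.17, beside -0.02. After removal of strain means, the correlation over the 6 arrays was above 0 for 337 of the 435 pairs of genes, with a median r of 0.43; pairs share arrays and normalization, and 6 points with strain means removed give a coarse description. Ppp1r12a, Tpm1, Des and Smtn were most like the other members (median r from 0.67 to 0.69) and Ppp1cb least (-0.13). The counts and correlations were not made for all tested probe sets, so they are not shown to be particular to the contractile genes.

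The gap between SHR replicate 1 and the next lowest array, for the 15 genes lowest there, ran from 0.06 (Pdlim3) to 0.58 (Ppp1r14a), with a median of 0.20. After Ppp1r14a the gap was widest for Pdlim7 (0.44), Zyx (0.41), Tpm2 (0.35) and Smtn (0.35). The mean level of the 30 genes was 8.45, 8.66 and 8.75 for the SHR arrays in replicate order, against 8.61, 8.70 and 8.67 for the WKY arrays, so the SHR arrays spanned the WKY arrays. By role, SHR replicate 1 lay below the mean of all arrays in each of the 6 groups, from -0.11 for the transcription factors to -0.24 for the phosphatase genes. WKY replicate 3 was high for the thin filament genes, at 0.18 on average, and low for the scaffold genes, at -0.10. The median range of a member over the 6 arrays was 0.45, against 0.67 for all tested probe sets and 0.54 for the 410 tested probe sets at or above the members' median level.

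**Figure D3:**
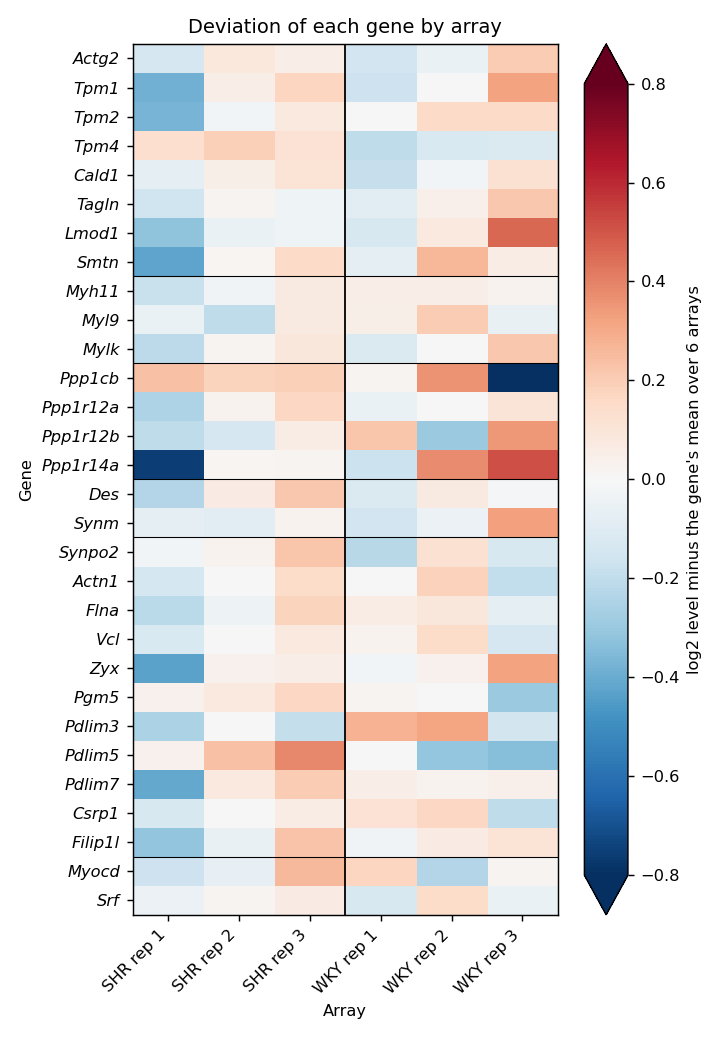
Deviation of each gene from its own mean over 6 arrays, by array, on a log2 colour scale that ends at 0.8 on either side; a line parts the SHR from the WKY arrays. The column of SHR replicate 1 is mostly blue, with Ppp1r14a darkest, and the column of SHR replicate 3 is mostly red, while Ppp1cb is dark blue on WKY replicate 3.

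Markers of other cells of the vessel and its surroundings also differed between these arrays. The 15 white adipocyte markers averaged 7.84, 6.23 and 4.69 in SHR, against 7.89, 6.39 and 6.52 in WKY. All 15 had a difference below 0, beside 52.0% of all tested probe sets. In limma 0 of the 15 passed and 0 had an unadjusted p under 0.05, and the strains overlapped for each. For fibroblasts (11 of 12 markers measured) the averages were 8.60, 7.93 and 7.44 in SHR and 8.42, 8.37 and 8.10 in WKY. For endothelial cells (10 of 12) they were 6.03, 4.88 and 4.44 in SHR and 6.00, 5.51 and 5.34 in WKY. Macrophage markers (12 of 12) averaged 5.72 on SHR replicate 1 and 3.60 on SHR replicate 3, with WKY between 4.27 and 5.05. All 4 lists were thus highest or second highest on SHR replicate 1, where the mean of the contractile genes was lowest. They were lowest on SHR replicate 3, where that mean was highest. Lists for brown adipocytes, nerve, lymphocytes and mast cells ran likewise. Skeletal and cardiac muscle lists were instead lowest on SHR replicate 1, and the pericyte list was highest on SHR replicate 3.

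SHR replicate 1 also carried nerve genes: markers of Schwann cells and sympathetic nerve (8 of 11 measured) averaged 6.23 there, against 3.29 to 3.75 on the other 5 arrays. Th, the enzyme that starts catecholamine synthesis, was at 5.92 on that array and between 1.13 and 1.68 on the others. Skeletal muscle markers (10 of 14) averaged 2.56, 2.62 and 2.72 in SHR and 3.55, 2.69 and 2.99 in WKY, and 3 of the 10, Tnnt1, Tnni1 and Pvalb, did not exceed the highest array median on any array. All 10 differences lay below 0, beside 52.0% of all tested probe sets. For 5 of the 10 the SHR arrays lay wholly below the WKY arrays, beside 5.61% of all tested probe sets. In limma 0 passed, with 2 lower at an unadjusted p under 0.05, where the background share was 2.54%. When the adipocyte average was added to the fit, an alternative picked once the values had been seen, the contractile median was -0.12 and 0 genes passed. With neither SHR replicate 1 nor WKY replicate 3, picked likewise, it was 0.04 and 0 genes passed. The part of the other lists, nerve included, in the array differences was not tested.

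**Figure D4:**
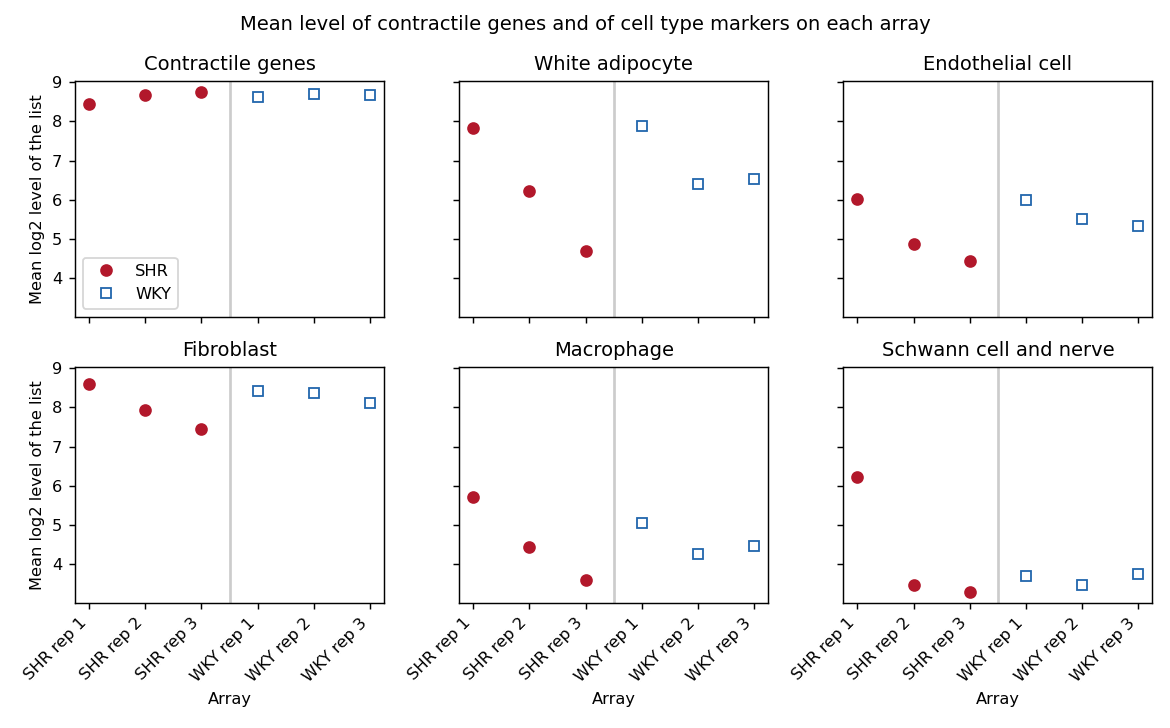
Mean log2 level of the 30 contractile genes and of 5 marker lists on each array, SHR as red circles on the left of each panel and WKY as blue open squares on the right, all on the same axis. The contractile mean stays between 8.45 and 8.75, while white adipocyte markers run from 4.69 to 7.89 and the nerve list stands at 6.23 on SHR replicate 1.

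Genes that set calcium sensitivity outside the list were examined next. Of 23 such genes 19 were measured; 0 passed in limma. An unadjusted p under 0.05 was found for 3 genes higher in SHR and 1 lower, where the background shares were 3.01% and 2.54%. The arrays of the strains did not overlap for 5 of the 19, beside 12.1% of all tested probe sets. The median difference was -0.02, with 9 genes above 0 and 10 below. The kinases that inhibit myosin phosphatase downstream of RhoA lay on the same side. Rock1 had 8.85, 8.97 and 9.10 on the SHR arrays, against 8.60, 8.57 and 8.30 on the WKY arrays, a difference of 0.48 ± 0.16 (SE; limma adjusted p = 0.758). Rock2 had 8.71, 8.80 and 8.80 in SHR, against 8.51, 8.49 and 7.97 in WKY, a difference of 0.44 ± 0.18 (limma adjusted p = 0.889) that was 0.27 without WKY replicate 3. Both were separated by strain without passing the test. Prkca, a protein kinase C gene, differed by 0.55 ± 0.20 (limma adjusted p = 0.860), and Rgs2, which shortens signals from contractile receptors, by -0.49 ± 0.19 (limma adjusted p = 0.876), each also separated by strain. Prkce, of the same kinase family, was separated in the other direction, at -0.32 ± 0.16 (limma adjusted p = 0.923). Prkcd, also of that family, overlapped between strains at 0.13 ± 0.21.

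Counterparts of the contractile proteins were measured for 13 of 16 genes, most of them isoforms of non-muscle cells. The list also holds Lmod2, a leiomodin of striated muscle, and Flnc, the muscle filamin. In limma 0 of the 13 passed. An unadjusted p under 0.05 was found for 1 of them, beside 5.55% of all tested probe sets. The median difference was 0.15, with 10 above 0 beside 48.0% of all tested probe sets. That median was 0.07 without WKY replicate 3, the array with the highest median level (2.52, against 2.29 to 2.33 on the others) and the lowest fitted array weight (0.22). The gene with the unadjusted p under 0.05 was Myh9, the heavy chain of non-muscle myosin IIA, which had 8.37, 8.37 and 8.49 in SHR, against 7.88, 8.03 and 8.05 in WKY, a difference of 0.42 ± 0.14 (SE; limma adjusted p = 0.756). Myh10, the IIB heavy chain, lay on the other side, at 7.46, 8.03 and 8.004 in SHR and 8.03, 8.12 and 8.16 in WKY, a difference of -0.27 that was -0.09 without SHR replicate 1. Actb, cytoplasmic actin, had 11.18, 11.14 and 10.98 in SHR, against 11.42, 11.35 and 11.23 in WKY (difference -0.23; limma adjusted p = 0.923). These 3 of the 13 genes were separated by strain, beside 12.1% of all tested probe sets. For Myh10 the separation was very narrow, with 8.026 on SHR replicate 2 against 8.031 on WKY replicate 1. The other 10 overlapped between strains: Tagln2, Lmod2, Actn4, Tmod3, Myl12a, Flnc, Vim, Tpm3 and Cnn3 differed by 0.11 to 0.36, and Myl12b by -0.09. Without WKY replicate 3, Vim and Cnn3 differed by 0.02, Tagln2 by 0.03, Myl12a by 0.07, Actn4 by 0.10 and Tmod3 by 0.11. Tmod3 differed by 0.08 without SHR replicate 1, and Tpm3 by -0.02 without WKY replicate 2. Lmod2 lay below the array medians on every array and differed by 0.10 without SHR replicate 2.

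**Figure D5:**
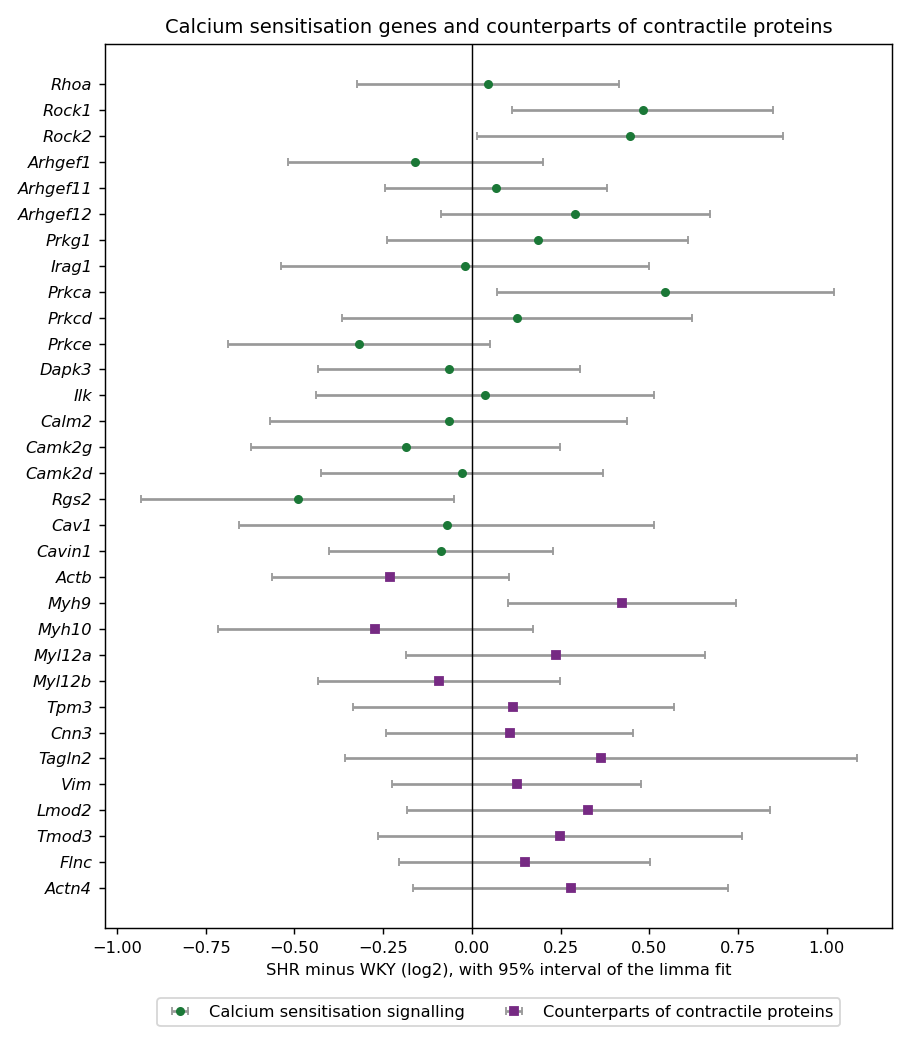
Fitted difference, SHR minus WKY on the log2 scale, with 95% intervals, for 19 calcium sensitisation genes (green circles) and 13 counterparts of contractile proteins (purple squares). The bars of Rock1, Rock2, Prkca and Myh9 lie above 0 and that of Rgs2 below, before any adjustment for the number of genes.

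Of 38 accessory genes of smooth muscle adhesion and filaments 32 were measured and 0 passed in limma. At an unadjusted p under 0.05 there were 1 higher and 1 lower, where the background shares were 3.01% and 2.54%. The strains were separated for 3 of the 32 (Itga5, Pdlim2 and Smtnl2), beside 12.1% of all tested probe sets. Itga5, the fibronectin receptor subunit, had 7.18, 7.26 and 7.13 in SHR, against 6.64, 6.69 and 6.52 in WKY. The strains were separated by more than the range within either, and the difference was 0.57 ± 0.14 (SE; limma adjusted p = 0.474). Pdlim2, another PDZ and LIM protein, lay lower in SHR, at 5.15, 5.62 and 5.39 against 5.65, 6.05 and 6.14 in WKY (difference -0.56; limma adjusted p = 0.819). Smtnl2, a smoothelin-like gene below the array medians, and Sgcd, a sarcoglycan of the membrane complex, differed by -0.31 and 0.37 (limma adjusted p = 0.923 for each). The difference of Sgcd was 0.21 without WKY replicate 3.

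Regulators of the programme gave a similar picture. Of 33 genes 28 were measured and 0 passed in limma. An unadjusted p under 0.05 was found for 1 of the 28, beside 5.55% of all tested probe sets. The strains were separated for 3 of the 28 (Klf15, Tead1 and Prrx1), beside 12.1% of all tested probe sets. Klf15, a zinc finger factor active in smooth muscle and in metabolism, had 3.22, 3.99 and 3.99 in SHR, against 4.47, 4.75 and 5.11 in WKY. All SHR values lay below all WKY values, with a difference of -1.05 ± 0.27 (SE; limma adjusted p = 0.528) that ran from -1.20 to -0.79 without 1 array. Klf2, a flow-responsive factor of endothelium, differed by -0.45, Prrx1, a homeobox factor of mesenchymal cells, by 0.30 and Tead1, which binds the CATTCC motif, by 0.65 (limma adjusted p from 0.921 to 0.923). The difference of Tead1 was 0.27 without WKY replicate 3.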

How the data were processed

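The deposited table holds log2 levels per probe set from Affymetrix Rat Gene 2.0 ST arrays, which the authors computed by RMA; per the submitters' processing notes, the software was Affymetrix Expression Console, version 1.2.1. The log2 base follows from RMA and the range of the values. The probe set annotation version and the build were not given in the sources used here. Strain and replicate number came from sample titles. Of 28879 probe sets, 18511 carry 1 symbol in the platform annotation, 575 several, and 9793 are not listed; 18394 matched the RefSeq table of GRCr8 through Entrez identifiers.

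Probe sets with a mean at or above the 25th percentile (1.17) were fitted in limma 3.58.1 (R 4.3.3; lmFit, eBayes) with strain as the only term, and p-values were two-sided and adjusted by Benjamini-Hochberg over all 21659. All 30 measured members passed the filter. Differences are SHR minus WKY; ± after a difference is the SE, after a level the SD. A gene with several probe sets was represented by the brightest. The fit was also run on simulated data with independent noise and no shifts between arrays. That run does not test it on arrays that differ as these do. The members and lists were chosen with earlier results of these data known. Named genes are all members, all counterparts of contractile proteins and the 4 genes of smallest unadjusted p in each other pathway list. Prkce and Prkcd were named in addition, beside Prkca of the same family. There is no detection call. Precision is limited by the number of arrays.

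Marker lists were averaged per array. Lists for brown adipocytes, cardiac muscle, lymphocytes, mast cells and pericytes were averaged likewise. Alternatives were a replicate block, other filters, normalizations, variance priors, array weights, thresholds, averaged probe sets and leaving out each array.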

Additional observations from a re-analysis of the deposited data

How the results depend on the processing

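The count of passing contractile genes was 0 under each of the 17 other fits and at an adjusted p under 0.1, and 1 at an unadjusted p under 0.05; over the fits, up to 3 had an unadjusted p under 0.05. Counts in the 4 pathway lists were 0 in every fit. The contractile median ran from -0.13 (cyclic loess) to 0.04, and from -0.13 to 0.04 over the fits without 1 array. The sign of the difference was kept in all 17 fits by 11 of the 30 genes, Tpm4, Pdlim5, Pdlim3 and Ppp1r14a among them; without SHR replicate 1 it changed for 9 genes. The number of intervals within 1 log2 unit of 0 was 28 to 30. Over the whole array, where 15 probe sets passed, the count was 2 to 5 without 1 array, 65 with array weights, 115 when SHR replicate 1 and WKY replicate 3 were both left out (picked once the values had been seen) and 30 at an adjusted p under 0.1; the cause was not tested. With the replicate block it was 3. No label says that equal replicate numbers mark a pair. Deviations of same-numbered arrays correlated at 0.35, -0.08 and 0.23. SHR replicates 1 and 3 correlated best with the WKY array of the same number, and SHR replicate 2 with WKY replicate 3 (0.17). With 3 arrays per strain, these correlations cannot decide whether the samples were paired. The replicate block left the contractile count at 0 and the median at -0.06, with Ppp1r14a in place of Pdlim5 at an unadjusted p under 0.05.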

Other observations

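Values of the marker lists not printed above were as follows. Brown adipocyte markers (7 of 7 measured) averaged 4.70, 4.34 and 3.14 in SHR, against 5.97, 4.05 and 4.57 in WKY. Cardiac muscle markers (8 of 10) averaged 2.15 to 2.45 in SHR and 2.25 to 2.64 in WKY, and 4 of the 8, including the myosin heavy chains Myh6 and Myh7, did not exceed the highest array median on any array. Pericyte markers (7 of 7) averaged 6.98, 6.74 and 7.01 in SHR and 6.80, 6.99 and 6.70 in WKY. Lymphocyte and mast cell lists averaged between 1.37 and 2.38 on all arrays.

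The probe set that Myl6, the essential light chain of smooth muscle myosin, shares with 3 other genes or loci was at 4.51, 4.83 and 5.12 in SHR, against 4.70, 4.90 and 5.36 in WKY. Signal from the genes it names cannot be told apart.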
